A study of Homo sapiens with 12 samples.

Results

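The genes described here make cholesterol and fatty acids, or control that synthesis. They are 29 genes taken by symbol from the 59653 symbols of a count table: 7 enzymes of the mevalonate steps, 11 of the squalene and sterol steps, 5 regulators or sterol carriers of the SREBP system, and 6 enzymes of fatty acid and lipid synthesis. All 29 had a row, and all 29 were among the 24671 genes with enough counts to be tested. The RNA is labelled as from human neurons made from induced pluripotent stem cells of IMR-90, an established line that goes back to lung fibroblasts, while all 12 sample titles carry the letters NPC, which the labels do not spell out. Of the 12 total-RNA libraries, 6 (siNC) came after a negative control siRNA and 6 (siZCC) after an siRNA against ZCCHC17, a zinc knuckle RNA-binding protein. A single cell line was used, the time after treatment is not given in the labels, and nothing says whether the replicates of a group are separate cultures, so the p-values measure the spread between these libraries only.

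Cholesterol is built from acetyl units through mevalonate, isoprenoid units and squalene, and the brain makes its own because lipoprotein cholesterol hardly crosses the blood-brain barrier. Transcription of the enzymes is driven by the membrane-bound factors SREBP1 and SREBP2 (genes SREBF1 and SREBF2). SCAP escorts them to the Golgi for cleavage when sterol is low, and INSIG1 holds SCAP in the endoplasmic reticulum when sterol is high. SREBP2 is best known for the sterol genes and SREBP1 for the fatty acid genes, and LXR receptors, which bind oxysterols, drive genes of sterol export.

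Libraries held 90755953 to 120023356 counts in siNC and 76115083 to 105389055 in siZCC. The target, ZCCHC17, stood at 54.0 to 61.0 CPM (counts scaled to a common library size, with a correction for library composition) in siNC and at 9.37 to 10.6 CPM in siZCC, a fall of 2.51 on the log2 scale (SE 0.0402; a fitted change of -82.4%). Neuron markers were present, with MAP2 at 1027 ± 104 and DCX at 649 ± 41.8 CPM in siNC, although RBFOX3, a marker of mature neurons, reached only 1.27 ± 0.148 CPM (SD, n = 6 each). Progenitor, glial and dividing-cell transcripts were also present, as in SOX2 at 621 ± 20.6, VIM at 3549.9 ± 109, GFAP at 615.5 ± 82.0 and MKI67 at 205 ± 16.8 CPM in siNC (SD, n = 6 each). The libraries are of bulk RNA, in which fewer cells of a type and less RNA per cell cannot be told apart. Libraries also fell into 6 with IL1B at 5.23 CPM or more (siNC replicates 2, 3 and 6, siZCC replicates 1, 4 and 5) and 6 with IL1B at 0.1 CPM or less, 3 of each group on either side.

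Many genes of cholesterol synthesis fell in siZCC, by small amounts. Of the 6 fatty acid and lipid synthesis genes among the 29, 0 fell and 1 rose, while of 30 further fatty acid genes 10 fell and 4 rose. The difference between these groups of genes was not tested. Of the 29 genes, 11 were lower and 2 higher by the quasi-likelihood test of edgeR with Benjamini-Hochberg adjustment over all genes tested (threshold 0.05), and 16 did not pass. Among all genes tested 10.8% were called lower and 11.4% higher, 22.2% in either direction. All but 1 of the 11 falls were in the 18 enzymes of the mevalonate, squalene and sterol steps, of which 10 were lower and 0 higher; the other was INSIG1. The median log2 fold change of the 18 enzymes was -0.13, against -0.0016 for all genes tested, and 17 of 18 had a negative value, against 50.4% of all genes. The 29 genes and the further lists were chosen with earlier results of these data known, so such comparisons with all genes are description and no independent support. The 2 rises were in SCAP and in the fatty acid synthase gene FASN. The falls ran from 7.39% to 25.8% of the control level.

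**Figure D1:**
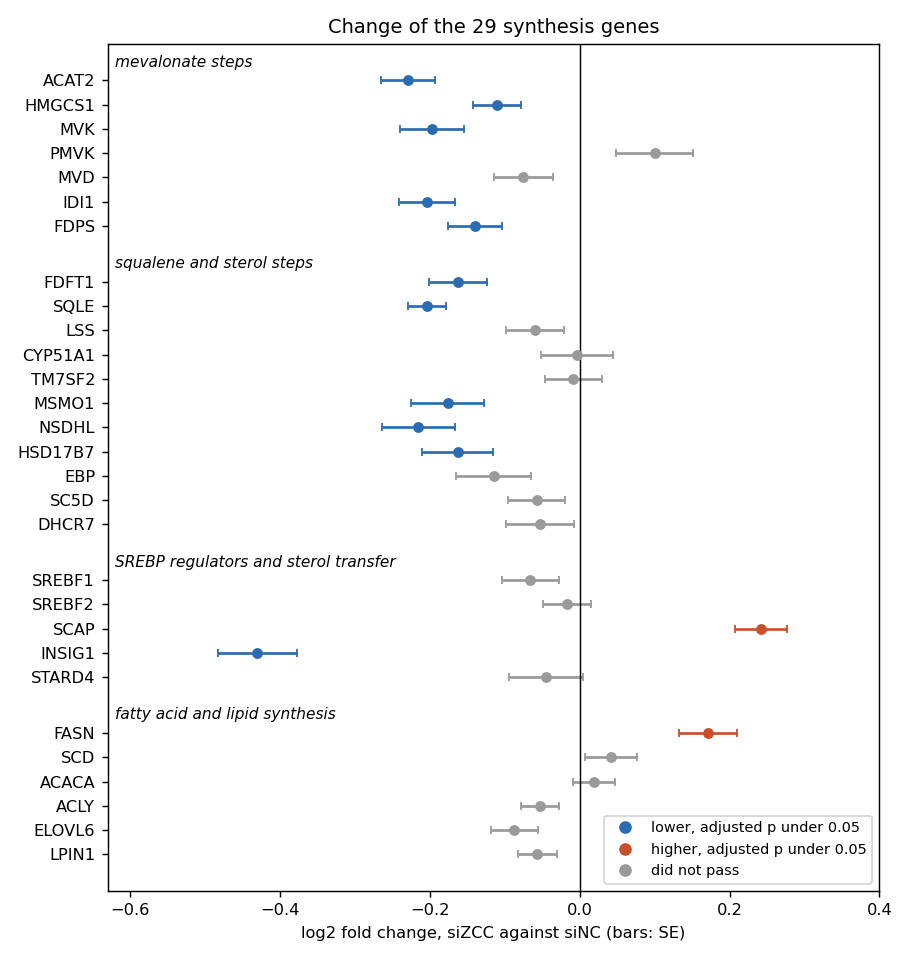
Fitted log2 fold change of siZCC against siNC (horizontal axis) for each of the 29 genes, with its standard error, in 4 role groups; blue and red mark adjusted p under 0.05. The 10 blue points other than INSIG1 lie in the upper pair of groups, INSIG1 at -0.43 is farthest to the left, and SCAP at 0.24 and FASN at 0.17 are the red points.

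Promoter letters are given first. Textbook targets of SREBP, which binds DNA together with the CCAAT-binding factor NF-Y, are found among the genes that fell and among those that did not. Whether SREBP or NF-Y had a part in the falls was not tested. RefSeq windows (GRCh38.p14; 250 bases before to 50 after a start) were at hand for 25 of the 29 genes, in 35 windows. They were not at hand for ACAT2, FDFT1, SQLE and FASN. The letters CCAAT, on either strand, were in at least 1 window of 19 of the 25 genes (76.0%), against 39.7% of all 27305 genes with windows, and in 34.6% of all 35116 windows. Of the 8 genes that fell and had a window, 8 held CCAAT and 7 held it at least 2 times in a window, against 12.9% of all genes. SCAP, which rose, held none, but its window lies before a RefSeq start inside a longer gene model, whose own start was not searched. FASN, the other gene that rose, had no window. Of 16 genes that did not pass the test 11 held it, and 7 (43.8%) held it at least 2 times in a window. Genes with several starts count as holding the letters when any of their windows does, and no test was made.

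Stretches upstream of 5 genes that fell and of SCAP are shown, so that the boxes can be seen in their context, trimmed to lie clear of annotated exons. The SCAP stretch lies before a RefSeq start that is inside a longer gene model. Capitals mark CCAAT or its reverse complement ATTGG.
INSIG1 (chr7:155297628-155297775, plus strand): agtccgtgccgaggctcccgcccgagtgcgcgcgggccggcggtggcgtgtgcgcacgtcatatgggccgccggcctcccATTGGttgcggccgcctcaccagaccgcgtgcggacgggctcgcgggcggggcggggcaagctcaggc
NSDHL (chrX:152830813-152830966, plus strand): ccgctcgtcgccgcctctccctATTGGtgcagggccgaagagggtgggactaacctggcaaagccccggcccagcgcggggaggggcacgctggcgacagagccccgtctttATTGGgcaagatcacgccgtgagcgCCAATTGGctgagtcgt
MSMO1 (chr4:165327443-165327622, plus strand): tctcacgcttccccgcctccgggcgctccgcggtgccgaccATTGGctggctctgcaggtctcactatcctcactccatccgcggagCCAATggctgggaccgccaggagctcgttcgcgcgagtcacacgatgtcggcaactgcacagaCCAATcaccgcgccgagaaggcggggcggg
HSD17B7 (chr1:162790522-162790701, plus strand): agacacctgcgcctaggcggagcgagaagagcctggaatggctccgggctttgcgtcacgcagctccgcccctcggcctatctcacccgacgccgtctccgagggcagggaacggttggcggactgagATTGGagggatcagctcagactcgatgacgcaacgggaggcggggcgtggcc
FDPS (chr1:155308616-155308747, plus strand): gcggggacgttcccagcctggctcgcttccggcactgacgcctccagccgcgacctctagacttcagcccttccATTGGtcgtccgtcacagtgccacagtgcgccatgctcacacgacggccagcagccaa
SCAP (chr3:47476114-47476191, minus strand): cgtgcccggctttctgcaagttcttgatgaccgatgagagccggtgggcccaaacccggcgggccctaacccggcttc

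In the NSDHL stretch 4 boxes can be seen, of which a pair overlaps in CCAATTGG, and MSMO1 shows 3. The exact core of the sterol regulatory element, TCACNCCAC on either strand, was in the window of 1 of the 25 genes, SREBF2, and in 1.13% of all windows. It is shown with 10 bases on either side and the core in capitals.
SREBF2 (chr22:41832962-41832990, plus strand): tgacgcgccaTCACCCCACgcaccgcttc
With at most 1 mismatch, a setting chosen after the exact count was seen, 13 of 25 genes held it (52.0%, against 28.2% of all genes). These were 6 of the 8 that fell and 7 of the 16 that did not pass. The Sp1 letters GGGCGG were in 24 of 25 genes (48.3% of all genes), 7 of the 8 that fell and 16 of the 16 that did not pass. The E-box CACGTG, which reads the same on both strands, was in 4 of 25 (8.77%). These are letters in a window, not measured binding.

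The mevalonate steps turn acetyl units into isoprenoids, and 5 of their 7 genes fell. ACAT2, the cytosolic thiolase that joins a pair of acetyl-CoA, ran from 39.2 to 44.7 CPM in siNC (median 41.7) and from 34.3 to 37.1 CPM in siZCC (median 34.7). The groups did not overlap. Its log2 fold change was -0.23 (SE 0.0358, adjusted p 2.56e-04, edgeR), a fall of 14.7%. IDI1, which isomerises the first isoprenoid unit, ran from 81.4 to 91.2 CPM (median 87.0) in siNC and from 70.5 to 80.8 CPM (median 76.7) in siZCC, again without overlap. It changed by -0.20 (SE 0.0373, adjusted p 9.19e-04, edgeR). MVK, mevalonate kinase, had 24.8 to 27.6 CPM (median 25.7) in siNC and 20.1 to 24.1 CPM (median 23.1) in siZCC, with siZCC replicate 2 lowest. That fall was 12.8% (log2 fold change -0.20, SE 0.0430, adjusted p 0.00342, edgeR) and the groups did not overlap.

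The remaining falls of this stretch were smaller. FDPS, which builds farnesyl diphosphate, had 87.1 to 101 CPM (median 93.3) in siNC and 80.9 to 88.0 CPM (median 84.4) in siZCC. Only the highest siZCC library reached into the siNC range, and the log2 fold change was -0.14 (SE 0.0357, adjusted p 0.00959, edgeR). HMGCS1, the cytosolic HMG-CoA synthase and by far the most abundant gene of the mevalonate steps per length (81.4 CPM per kilobase of exon in siNC), had 369 to 400 CPM (median 380) in siNC and 329 to 372 CPM (median 356) in siZCC. In siZCC, 5 of the 6 libraries lay below every siNC library, and the fall was 7.39% (log2 fold change -0.11, SE 0.0321, adjusted p 0.0200, edgeR). With offsets for GC content and length the log2 fold change of HMGCS1 was -0.076 (adjusted p 0.046, edgeR). PMVK, phosphomevalonate kinase, and MVD, mevalonate diphosphate decarboxylase, did not pass. PMVK had 35.0 ± 2.09 CPM in siNC and 37.6 ± 3.12 in siZCC, with a log2 fold change of 0.10 (95% interval -0.0086 to 0.21), the one positive value among the 18 enzymes. MVD had 78.0 ± 4.28 and 74.1 ± 3.56 CPM (SD, n = 6 each), with an interval of -0.16 to 0.0088, and passed with offsets for GC content and length (-0.11, adjusted p 0.00251, edgeR).

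From squalene to cholesterol, 5 of 11 genes fell, and the falls sat at the entry and at the removal of the C4 methyl groups. SQLE, squalene epoxidase, a rate-limiting step of the pathway, gave the smallest p of all 18 enzymes. It had 109 to 115 CPM (median 113) in siNC and 94.0 to 101 CPM (median 98.9) in siZCC, with no overlap. Its log2 fold change was -0.20 (SE 0.0257, adjusted p 3.69e-05, edgeR), a fall of 13.2%. FDFT1, squalene synthase, had 121 to 141 CPM (median 131) in siNC and 108 to 123 CPM (median 119) in siZCC. Its groups touched in the highest siZCC library, and it changed by -0.16 (SE 0.0389, adjusted p 0.00643, edgeR).

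MSMO1, NSDHL and HSD17B7 are the oxidase, the decarboxylating dehydrogenase and the ketoreductase that together strip the C4 methyl groups. All of them fell. NSDHL had 24.7 to 29.3 CPM (median 27.6) in siNC and 21.5 to 25.5 CPM (median 24.1) in siZCC, with a log2 fold change of -0.22 (SE 0.0490, adjusted p 0.00453, edgeR). MSMO1 had 91.5 to 104 CPM (median 94.2) and 73.1 to 91.6 CPM (median 87.4), with siZCC replicate 5 lowest. It changed by -0.18 (SE 0.0487, adjusted p 0.0153, edgeR). HSD17B7 had 12.9 to 14.8 CPM (median 14.2) and 11.1 to 13.2 CPM (median 12.7), a change of -0.16 (SE 0.0474, adjusted p 0.0206, edgeR). Of the 6 siZCC libraries, 4 lay below every siNC library for NSDHL and HSD17B7 and 5 for MSMO1, so these groups overlapped slightly. HSD17B7 has a near-identical unprocessed pseudogene, HSD17B7P2, whose counts came to 35.0% of its own, so its value is uncertain.

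The other 6 sterol enzymes did not pass, with log2 fold changes from -0.12 to -0.0039 and adjusted p from 0.115 to 0.966 (edgeR). They are LSS, the cyclase that makes lanosterol, CYP51A1, the C14 demethylase, TM7SF2, a C14 reductase, EBP, the sterol isomerase, SC5D, a desaturase, and DHCR7, which makes cholesterol in the last step of its branch. EBP, the least abundant of all 29 in CPM, came nearest, with 9.61 ± 0.674 CPM in siNC and 8.88 ± 0.262 in siZCC and a 95% interval of -0.22 to -0.0088 that is not adjusted for the number of genes. LSS had 157 ± 8.60 and 150 ± 6.81 CPM, DHCR7 74.3 ± 3.72 and 71.6 ± 4.98 CPM, and SC5D 91.1 ± 2.76 and 87.5 ± 5.32 CPM. TM7SF2 was at 63.7 ± 3.70 and 63.4 ± 2.38 CPM, and CYP51A1 at 15.2 ± 1.18 and 15.1 ± 0.404 CPM (SD, n = 6 each for these genes, siNC first). A second gene model on the same strand, AC000120.2, covers 79.4% of the exon bases of CYP51A1, so reads of this gene may have been set aside as ambiguous and its value is uncertain.

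**Figure D2:**
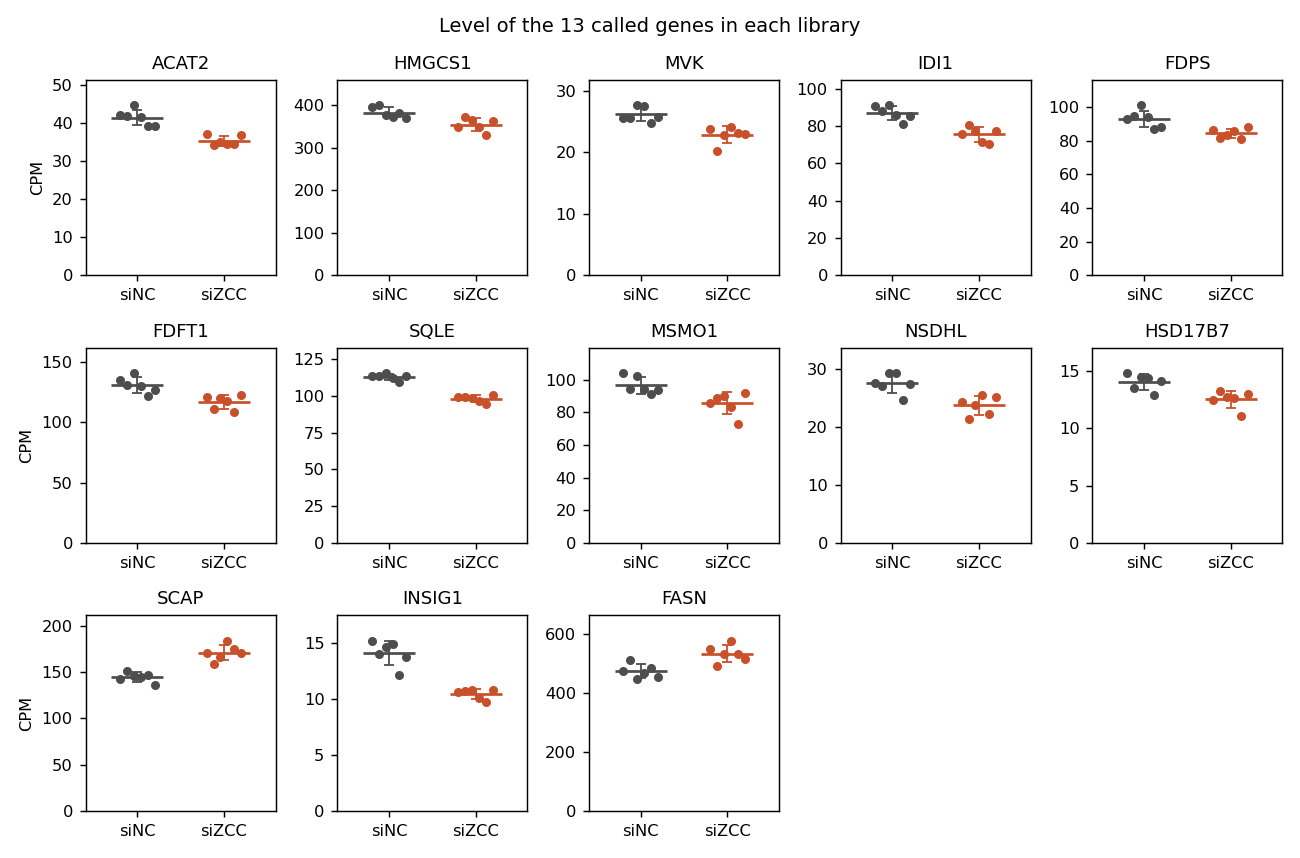
CPM (vertical axes, from 0) in each of the 6 siNC and 6 siZCC libraries for the 13 genes that passed the test, with the mean and SD of each group. SQLE and INSIG1 in siZCC sit wholly below siNC, SCAP wholly above, and the siZCC points of HMGCS1 and FDPS reach the lower edge of siNC.

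The SREBP machinery moved in opposite directions at its inhibitor and its escort. INSIG1, itself a classic SREBP target, had 12.1 to 15.2 CPM (median 14.3) in siNC and 9.71 to 10.8 CPM (median 10.6) in siZCC. Every siZCC library lay below every siNC library. This was the largest change of the 29 genes, with a log2 fold change of -0.43 (SE 0.0526, adjusted p 2.73e-05, edgeR), a fall of 25.8%. SCAP had 135 to 151 CPM (median 145) in siNC and 159 to 184 CPM (median 171) in siZCC, again with no overlap but in the other direction. SCAP rose by 0.24 on the log2 scale (SE 0.0349, adjusted p 1.29e-04, edgeR), or 18.3%.

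The transcripts of the factors themselves did not pass, although SREBF1 did with offsets for GC content and length (-0.11, adjusted p 0.0108, edgeR). SREBF2 had 353 to 386 CPM (median 369) in siNC and 343 to 386 CPM (median 363) in siZCC, so the groups overlapped almost fully, and the 95% interval of its log2 fold change was -0.08 to 0.05. SREBF1 had 32.0 to 35.9 CPM (median 33.0) and 29.1 to 33.0 CPM (median 32.4), with a log2 fold change of -0.07 (interval -0.15 to 0.01). Per kilobase of exon SREBF2 was far more abundant in siNC than SREBF1, at 48.9 against 4.16 CPM per kilobase. STARD4, a soluble sterol carrier, had 21.4 ± 1.24 and 20.8 ± 1.51 CPM (SD, n = 6, siNC first) and a log2 fold change of -0.05. Transcript levels do not measure the cleaved, active SREBP proteins, which were not analysed here.

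In fatty acid and lipid synthesis 1 of 6 genes rose, 0 fell, and the median log2 fold change was -0.02. FASN, which carries out the whole chain of palmitate synthesis, had 448 to 514 CPM (median 472) in siNC and 493 to 578 CPM (median 534) in siZCC. In siZCC, 5 of 6 libraries exceeded every siNC library, and FASN rose by 0.17 on the log2 scale (SE 0.0387, adjusted p 0.00430, edgeR), or 12.6%. With offsets for GC content and length the rise was 0.09 (adjusted p 0.0309, edgeR). SCD, the stearoyl-CoA desaturase, was the most abundant of the 29 genes per length (151 CPM per kilobase in siNC), with 780 to 850 CPM (median 811) in siNC and 764 to 871 CPM (median 850) in siZCC. Its interval was -0.03 to 0.11, and the siZCC libraries lay on both sides of the siNC range. ACACA, the acetyl-CoA carboxylase of the committed step, was at 149 ± 4.51 and 151 ± 4.10 CPM (SD, n = 6, siNC first), with an interval of -0.04 to 0.08.

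ACLY, which supplies cytosolic acetyl-CoA to both pathways, had 307 ± 6.17 CPM in siNC and 296 ± 7.16 in siZCC (SD, n = 6 each), and 3 of 6 siZCC libraries lay below every siNC library. Its log2 fold change was -0.05 (adjusted p 0.149, edgeR). ELOVL6, an elongase, missed the threshold narrowly: 43.4 to 45.7 CPM (median 44.4) in siNC against 40.6 to 45.4 CPM (median 41.1) in siZCC, a log2 fold change of -0.09 (SE 0.0308, adjusted p 0.0515, edgeR). It passed in 8 of 25 alternative analyses. LPIN1, a phosphatidate phosphatase of glycerolipid synthesis, had 70.4 ± 1.79 and 67.7 ± 1.23 CPM (SD, n = 6, siNC first) and an adjusted p of 0.131 (edgeR).

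Levels per length set the scale for these changes. In siNC the order was SCD at 151, HMGCS1 at 81.4, ACLY at 58.8, FASN at 50.7 and SREBF2 at 48.9 CPM per kilobase of exon, and HSD17B7 at 2.93 was last. The means of FASN and SREBF2 lay within their libraries' spread of each other in siNC, while in siZCC FASN stood at 57.1 and SREBF2 at 48.3 CPM per kilobase. INSIG1, the gene with the largest change, was 27th of 29 by this measure, at 3.86 CPM per kilobase in siNC and 2.86 in siZCC. Its counts, never under 754 in a library, are still far above counting noise.

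Averages over each role group show how single libraries contributed. Averaged over the 7 mevalonate genes, log2 CPM relative to the siNC mean ran from -0.06 to 0.07 in siNC and from -0.17 to -0.08 in siZCC, without overlap. Over the 11 squalene and sterol genes the range was -0.09 to 0.05 in siNC and -0.19 to -0.05 in siZCC, and siNC replicate 5, the lowest control, lay within the siZCC range. For the 6 fatty acid genes it was -0.04 to 0.03 in siNC and -0.03 to 0.04 in siZCC. Among its group, siNC replicate 5 was the lowest library in 14 of the 29 genes, siZCC replicate 2 in 14 and siZCC replicate 5 in 12. Leaving out any 1 of the 12 libraries left the calls of 12 of the 13 genes in place; HSD17B7 lost its call without siNC replicate 1 (adjusted p 0.0510, edgeR).

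**Figure D3:**
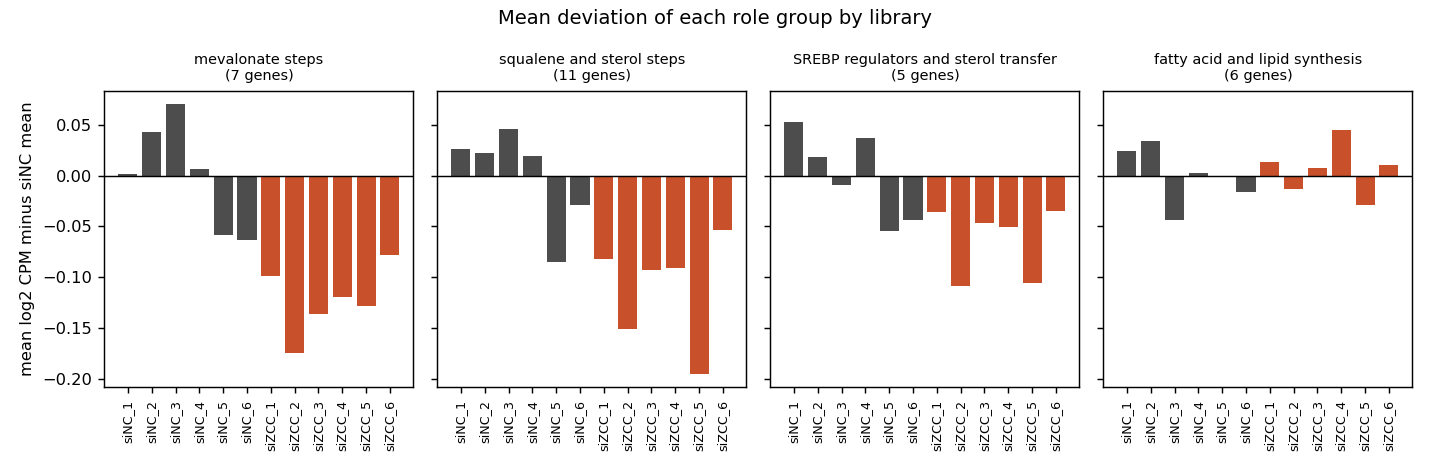
Mean log2 CPM of each role group in each library, as the difference from the siNC mean (vertical axis, log2 units), with siNC in grey and siZCC in red. The siZCC bars of the mevalonate group lie between -0.17 and -0.08, below all siNC bars, while the fatty acid bars scatter around 0 in both groups.

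Without any model, 6 of the 29 genes had groups that did not overlap: ACAT2, MVK, IDI1, SQLE and INSIG1 lower in siZCC and SCAP higher. Over the whole table the groups did not overlap in 9.74% of genes, 4.5% lower and 5.25% higher. The exact two-sided permutation test over the 924 assignments of libraries gave p = 0.00216 for each of these 6. This is the smallest that 6 against 6 can give, and groups without overlap always reach it, so it restates the separation. For the other 7 called genes the permutation test gave 0.00433 to 0.00649.

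Other genes of the pathway were counted from lists drawn up beside the 29. Of 11 further genes of the mevalonate branches and of sterol reduction that were tested, 3 fell and 1 rose, with a median log2 fold change of -0.04. TMEM97, a sterol-responsive protein that binds NPC1, fell from 31.7 ± 0.876 to 28.3 ± 0.859 CPM, LBR, a C14 sterol reductase of the inner nuclear membrane, from 69.2 ± 3.81 to 61.5 ± 1.84 CPM, and GGPS1, which makes geranylgeranyl diphosphate, from 18.2 ± 1.17 to 16.7 ± 0.814 CPM (SD, n = 6 each). FAXDC2 rose from 23.3 ± 1.07 to 28.5 ± 2.03 CPM (SD, n = 6 each). Of 11 other genes that control SREBP, 3 rose and 1 fell. ERLIN2 (0.12, SE 0.0268), which takes part in degrading proteins at the endoplasmic reticulum, was among those that rose, as was PAQR3 (0.14, SE 0.0441), a Golgi anchor of SCAP, while RNF145 fell (-0.09, SE 0.0285).

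Of 17 genes of LXR signalling, sterol export and sterol trafficking, 11 rose, 0 fell and 6 did not pass, with a median log2 fold change of 0.10. Among all genes tested 11.4% were called higher and 10.8% lower. ABCG1, an LXR target that exports sterol, had 5.30 to 6.93 CPM (median 6.20) in siNC and 7.91 to 9.91 CPM (median 8.99) in siZCC, with no overlap. It rose by 0.53 on the log2 scale (SE 0.0688, adjusted p 5.07e-05, edgeR). NPC2, which hands cholesterol out of the lysosome, rose from 60.3 ± 1.62 to 72.6 ± 4.32 CPM. GRAMD1B, which carries plasma membrane cholesterol to the endoplasmic reticulum, rose from 28.3 ± 2.83 to 36.3 ± 2.09 CPM (SD, n = 6 each), and neither gene's groups overlapped. Of the 30 further fatty acid genes 10 were lower and 4 higher, where 10.8% of all genes tested were called lower and 11.4% higher. Their median log2 fold change was -0.08, and 19 of the 30 had a negative value. The 3 falls with the smallest p-values were those of ACSL3 (-0.18, SE 0.0296), ME1 (-0.44, SE 0.0832) and ELOVL1 (-0.25, SE 0.0499), and the 3 such rises were those of ACSL6 (0.33, SE 0.0695), MID1IP1 (0.15, SE 0.0380) and HSD17B12 (0.17, SE 0.0457).

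**Figure D4:**
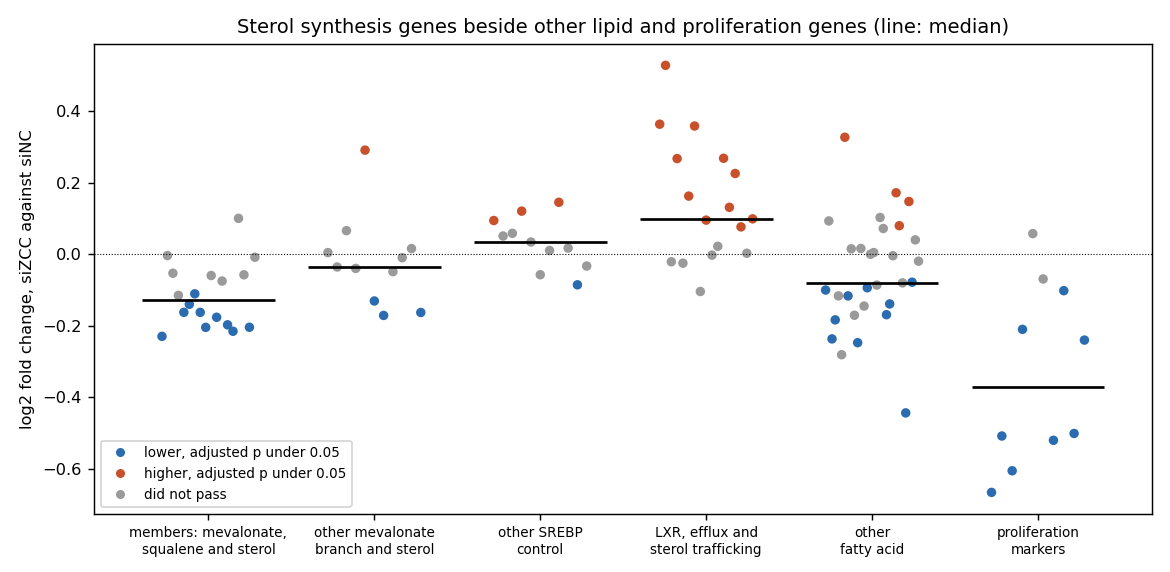
Log2 fold change of siZCC against siNC (vertical axis) for each gene of the 18 sterol synthesis enzymes and of 5 further lists (horizontal axis), with the list's median as a line and calls in colour. The sterol enzymes have a median of -0.13 and the LXR, efflux and trafficking genes one of 0.10.

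Some markers of cell types and states were called as well, where 10.8% of all genes tested were called lower and 11.4% higher. Summed levels of the groups overlapped in every list but that of the proliferation markers. Of 10 proliferation markers 8 fell and 0 rose, and their summed level was 774 to 851 CPM in siNC and 618 to 720 CPM in siZCC. Of 14 neuron markers 6 fell and 1 rose (3901 to 4370 against 3541 to 4014 CPM), and of 10 astrocyte markers 5 rose and 1 fell (1721 to 1937 against 1815 to 2130 CPM). Of 10 progenitor markers 3 rose and 1 fell (6317 to 6731 against 6357 to 6911 CPM), and of 9 mesenchymal markers 1 rose and 4 fell (424 to 706 against 346 to 517 CPM). Oligodendrocyte lineage markers summed to 408 to 456 CPM in siNC and 398 to 457 in siZCC, with 1 lower of 6 tested and MAG, MOG and SOX10 at 0 to 8 counts. Microglial markers summed to at most 2.71 CPM with 0 of 4 tested called. The part of these shifts in the fall of the sterol genes was not tested.

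On each side of the IL1B split the 13 called genes kept their direction. They were called on these same libraries, so their kept direction is no independent check. Among the 6 libraries with high IL1B, 10 of the 29 genes were called, 8 lower and 2 higher, where 3.98% of all genes tested were called lower and 4.22% higher (8.2% in all). Among the 6 with low IL1B 5 were called, 4 lower and 1 higher, against 2.95% and 3.5% of all genes (6.45% in all). Each side has 3 libraries per group. INSIG1 was at -0.48 on the high side and -0.39 on the low side, and SQLE at -0.24 and -0.17. IDI1 was at -0.28 and -0.13, MSMO1 at -0.26 and -0.10, HMGCS1 at -0.16 and -0.06 and FASN at 0.23 and 0.11. A test of the difference between sides, added after these values were seen, called 0 of the 29 genes (edgeR interaction term, smallest adjusted p 0.935, with 1 gene at an unadjusted p under 0.05) and 0 of all 24671.

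**Figure D5:**
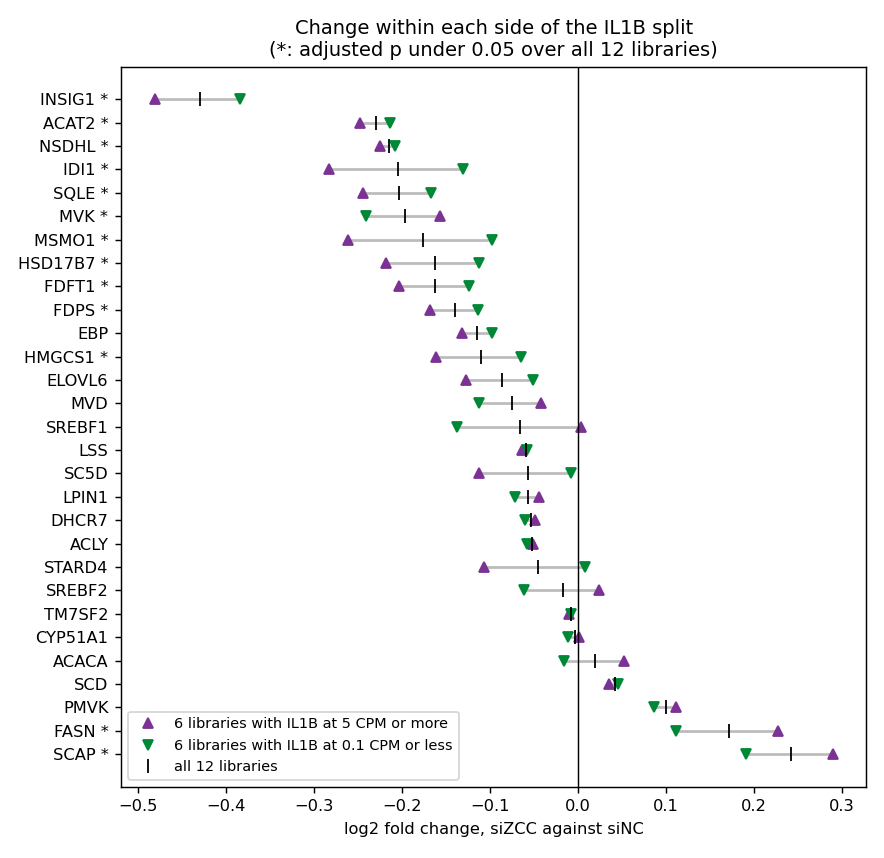
Log2 fold change of siZCC against siNC (horizontal axis) for each of the 29 genes within the 6 libraries with high IL1B (upward triangles), within the 6 with low IL1B (downward triangles) and over all 12 (bars). The 13 genes marked with an asterisk, called on these same libraries, keep their sign on both sides, with INSIG1 at -0.48 and -0.39.

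Positions, on GRCh38 in GENCODE v29, are given for the genes that changed most without overlap. INSIG1 spans 155297776 to 155310235 of chromosome 7 (plus strand), SCAP 47413694 to 47477126 of chromosome 3 (minus strand), ACAT2 159760328 to 159779055 of chromosome 6 (plus strand) and IDI1 1039152 to 1049170 of chromosome 10 (minus strand). Exons of SOD2-OT1, SOD2 and TCP1 on the opposite strand cover 33.9%, 26.5% and 9.23% of the exon bases of ACAT2. The strand setting of the counting is not stated, so the value of ACAT2 is uncertain to that extent. The same holds for FDPS, HMGCS1 and IDI1, of whose exon bases opposite-strand genes cover 18.6%, 15.0% and 14.8%.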

How the data were processed

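Total RNA of 12 samples was made into libraries with a directional kit, per the labels' protocols. The deposited file gives counts, as whole numbers, for each gene symbol in each library. The submitters' processing notes name bcl2fastq 2.17, STAR 2.7.6a, featureCounts 2.0.1 and the build GRCh38; annotation and strand setting are not given in the sources used here. Groups came from the sample titles.

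The test used edgeR 4.0.16 under R 4.3.3 on unaltered counts: filterByExpr (about 0.0997 CPM), TMM scaling, quasi-likelihood test without covariates over all 12 libraries, Benjamini-Hochberg adjustment over 24671 genes, threshold 0.05. The standard error is the log2 fold change over the square root of F. Levels per length use merged exons of GENCODE v29. Alternatives used limma 3.58.1, DESeq2 1.42.0 and sva 3.50.0. Named are the 29 genes, ZCCHC17 and, in each further list, the 3 smallest p-values called in each direction, of which 1 gene is not reported here; 6 markers given with levels were picked once values were known. The members and lists were chosen with earlier results of these data known. Simulated counts (24382 genes) had 100 genes changed at each log2 size, all with a mean over 1 CPM. The test found 64% of those changed by 0.25 and 93% of those changed by 0.5, while 6.55% of calls fell on genes left alone. Far fewer genes were changed than were called in the data, so these shares do not measure the power of the real test. The biological coefficient of variation, a measure of the spread between replicates, was 6.55%. Whether spread or depth sets the precision for a given gene was not tested.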

Additional observations from a re-analysis of the deposited data

Results flagged for a closer look

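In 62 groups of 6 values (the 29 genes, ZCCHC17 and the library totals) the highest or lowest library stood far from the rest in 5, where chance gives about 3.1. The library siZCC replicate 2 was lowest for MVK (4.33 against 4.51 to 4.59 in log2 CPM, a gap of 0.694 of the range) and for SREBF1 (4.87 against 4.98 to 5.05, gap 0.637). For HSD17B7, siZCC replicate 5 was lowest (3.48 against 3.64 to 3.73, gap 0.658). For ACACA, siZCC replicate 4 was highest (7.32 against 7.21 to 7.24, gap 0.702). With 90755953 counts, siNC replicate 4 was the smallest siNC library, below a range of 109973707 to 120023356 for the others (gap 0.657).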

How the results depend on the processing

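Over all 12 libraries, 13 to 16 of the 29 genes were called under the other scalings, filters, tests and corrections, always with 2 higher, and the 13 called genes were among them each time. The most, 16 with 14 lower, came with offsets for GC content and length, which added SREBF1, MVD and ELOVL6 and lowered the rise of FASN to 0.09. With these offsets the falls of ACAT2, HMGCS1, IDI1, FDFT1, SQLE, MSMO1 and NSDHL became smaller. HMGCS1 was then at -0.076 (adjusted p 0.046, edgeR) and SQLE at -0.17, while the fall of MVK became larger (-0.22). EBP gained a call without siNC replicate 1 (-0.15, adjusted p 0.0283). ELOVL6 gained its call in 8 of 25 alternatives. Leaving out 1 library gave 13 to 14 called genes, 11 to 12 lower and 2 to 2 higher, and 4484 to 5626 over the whole table. Within the 6 high-IL1B libraries 2043 of 24925 genes of the whole table were called, and within the 6 low-IL1B libraries 1602 of 24824, with 5 of the 29 (4 lower, 1 higher), where fewer libraries were fitted. Signs turned only in genes that were not called. CYP51A1 became 7.4e-05 with limma voom, 0.000429 in high-IL1B libraries, and 0.0326 with GC and length offsets. Leaving out 1 library, it ran from -0.0356 to 0.0236, TM7SF2 from -0.0289 to 0.0119 and SREBF2 from -0.0323 to 0.000475. In high-IL1B libraries SREBF1 became 0.00315 and SREBF2 0.0234. In low-IL1B libraries STARD4 became 0.00778 and ACACA -0.0156. The cause was not tested. A replicate block called 4902 genes and 13 of the 29 (11 lower, 2 higher). Deviations of same-numbered libraries were nearly uncorrelated over all genes tested (r from -0.077 to 0.0179), which cannot exclude a shared culture or batch. Same-numbered libraries always lay on opposite sides of the IL1B split, and whether the numbers pair the samples was not settled.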
